A study of Mus musculus with 5 samples.

Results

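The liver secretes most of the proteins that circulate in plasma. They carry hormones, iron, haem and lipids, form and dissolve clots, and make up much of the complement system. Their genes depend on a shared set of hepatocyte transcription factors, among them HNF1, HNF4, C/EBP and FOXA proteins, and the bile duct, liver and ventral pancreas arise next to each other from the embryonic foregut. Other tissues make some of these proteins too: islet cells transcribe Ttr, and intestine or yolk sac make several apolipoproteins.

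The genes described here are 44 hepatic plasma protein genes. They were chosen by name, with earlier results of these data known, as carriers, apolipoproteins, clotting factors and their inhibitors, and complement components. Of these, 42 had a probe set with a single gene symbol, out of 19938 such genes on the array, and C3 and Gc are not analysed here. They were measured in whole pancreas of littermate mice at postnatal day 1. In 3 Pdx1cKO mice, Elastase-Cre recombined the Pdx1loxP allele, which inactivates Pdx1 in exocrine cells, where the Elastase promoter drives Cre. The 2 controls are labelled only as not recombined. Each mouse gave 1 Mouse Gene 1.0 ST array, and values are deposited intensities on a linear scale, already normalized between arrays by the authors.

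Array medians lay between 60.99 and 61.86, so the arrays share a scale, and the number of mice limits the precision. Pdx1 itself was at 48.4, 48.4 and 42.9 in Pdx1cKO mice 1, 2 and 3 and 67.9 and 113 in controls 1 and 2, a log2 fold change of -0.91 (limma adjusted p = 0.385). Acinar transcripts, the labelled tissue's main product, had a list median of 766, 957 and 1436 in the Pdx1cKO mice and 7611 and 4761 in the controls. Control 2 stood apart: the list median of stomach genes was 48.2 to 56.2 in the Pdx1cKO mice, 51.1 in control 1 and 1193 in control 2. Y-linked genes were high in Pdx1cKO mouse 3 and in both controls, and low in Pdx1cKO mice 1 and 2.

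Every one of the 42 measured members had a positive log2 fold change between Pdx1cKO and control pancreata, with a median of 2.03, against 0.00 over all genes. The fold changes ran from 0.05 for C9 to 3.69 for Fgg. In 33 of the 42 the groups did not overlap, every Pdx1cKO value being the higher, which held for 12% of all genes, and 34 members were over 1 log2 higher. The 3 largest log2 fold changes on the whole array were those of the members Fgg, Apoh and Fgb, and 18 of the 50 largest belonged to members. Since the list was made with earlier results of these data known, these counts and medians describe it and do not test it.

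No member passed the test over all genes, where limma with Benjamini-Hochberg adjustment called 0% of genes higher. The smallest adjusted p among members was 0.228 (Alb). At an unadjusted p under 0.05, 18 members were higher, against 5.29% of all genes. The Pdx1cKO mice differed far more among themselves for these genes than for others: the median SD of log2 values between them was 1.06 over the members and 0.04 over all genes. The 18 became 2 without control 1 and 4 without control 2, when 14.8% and 10.4% of all genes were higher at that p, so the members then lay below the background. The count was 5 without Pdx1cKO 1 (3.57% of all genes), 9 without Pdx1cKO 2 (4.08%) and 32 without Pdx1cKO 3 (4.35%). At an adjusted p under 0.05, limma called 8.04% of all genes higher without control 1 and 4.99% without control 2, none of them a member. The mice are described only as littermates, and p-values measure the spread between these samples.

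Mouse 3, the Pdx1cKO mouse with high Y-linked levels like the controls, was also the one with the smallest differences. A fit with that pattern as a covariate, which sets mouse 3 alone against the controls, gave the members a median log2 fold change of 0.89, against 2.03. With array weights 1 member, and by the methods' t-test 10 members, had an unadjusted p under 0.05, against 1.21% and 3.68% of all genes. Sex and the size of the difference cannot be told apart within the Pdx1cKO mice.

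**Figure D1:**
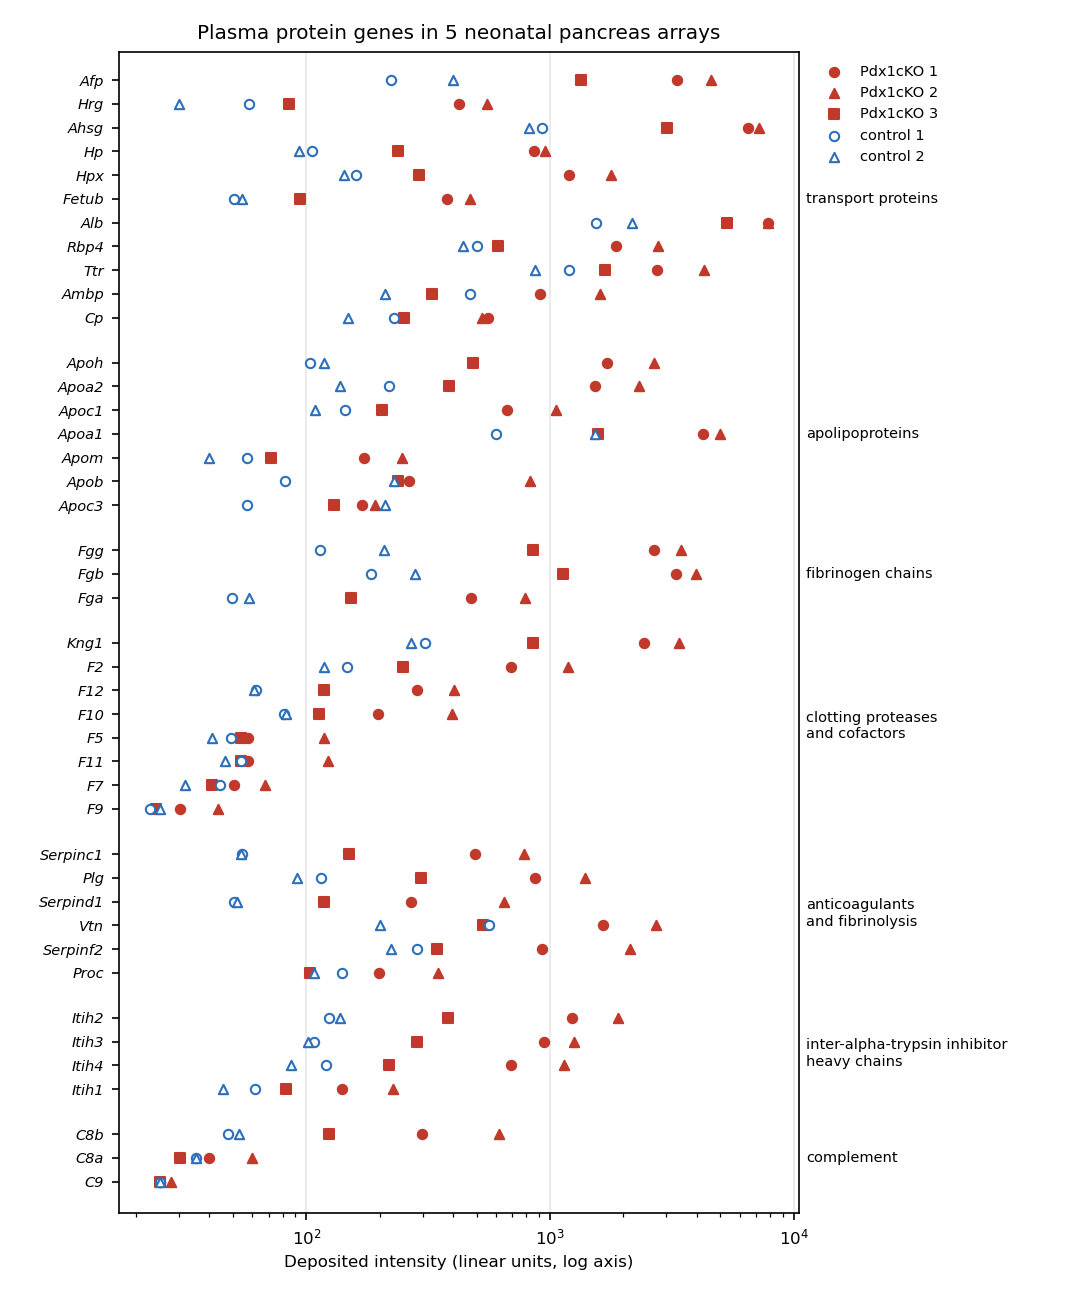
Intensity (log axis) of each of the 42 measured members in the 5 arrays, by role (red filled symbols, Pdx1cKO mice; blue open symbols, controls; the symbol gives the replicate). In 33 rows all 3 red symbols lie right of both blue ones, and mouse 3 (red squares) is the lowest of the red symbols in 41 rows.

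The proximal promoters of 4 members are shown because these genes were all much higher in the Pdx1cKO mice and share motifs of hepatocyte factors, which the choice of members did not use. Each run is the 150 bases before the RefSeq transcription start on GRCm38.p6, 5′ to 3′ on the gene's strand. Capitals mark the HNF1 motif GTTAAT and the C/EBP motif TTGCNNAA on either strand. The positions are Alb at chr5:90460720-90460869, plus strand; Afp at chr5:90490564-90490713, plus strand; Fga at chr3:83026003-83026152, plus strand; and Fgb at chr3:83049864-83050013, minus strand.
Alb: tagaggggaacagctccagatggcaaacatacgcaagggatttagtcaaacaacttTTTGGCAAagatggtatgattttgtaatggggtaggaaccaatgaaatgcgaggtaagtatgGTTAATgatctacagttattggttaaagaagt
Afp: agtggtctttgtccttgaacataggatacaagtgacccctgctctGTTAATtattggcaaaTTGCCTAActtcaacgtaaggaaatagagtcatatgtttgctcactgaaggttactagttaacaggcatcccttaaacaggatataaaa
Fga: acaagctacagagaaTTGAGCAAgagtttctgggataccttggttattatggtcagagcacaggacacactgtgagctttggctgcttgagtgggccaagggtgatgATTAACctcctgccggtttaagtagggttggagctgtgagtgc
Fgb: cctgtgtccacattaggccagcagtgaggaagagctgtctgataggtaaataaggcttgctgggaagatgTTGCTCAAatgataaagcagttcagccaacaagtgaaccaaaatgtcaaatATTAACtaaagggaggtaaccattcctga

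Counted from the transcription start, the HNF1 letters begin at -32 in Alb, -29 in Fgb, -43 in Fga and -105 in Afp. The C/EBP letters begin at -94 in Alb, -80 in Fgb, -135 in Fga and -89 in Afp. Promoters of 250 bases were found for 37 of the 44 members. Of these, 10 held GTTAAT (27.0%, against 7.49% of 27025 genes) and 16 held TTGCNNAA (43.2% against 10.8%). Both were held by 5, the 4 printed and Cp, or 13.5% against 1.08% of genes. The FOXA motif TGTTTAC was in 5 (13.5% against 3.54%), TATAAA in 7 (18.9% against 14.3%), and the HNF4 letters CAAAGTCCA in 0 (0.451% of genes). Both strands were searched, a gene was counted once for each motif, and a match is a run of letters, not a measured binding site. Large log2 fold changes also occurred without either motif, as in Fgg (3.69) and Apoh (3.56). Small ones occurred with a motif: C8a (0.24) held GTTAAT, and C9 (0.05), F9 (0.41) and F11 (0.53) held TTGCNNAA. Of these, C8a, C9 and F9 lay below the array median in every array, and F11 did in all but Pdx1cKO mouse 2. Ratios of such dim values can understate a difference. Cp, which held both and is not printed, had 1.18.

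The 3 fibrinogen chains, which assemble into the precursor of the fibrin clot, had the highest median of any role, at 3.44. Fgg, the gamma chain (probe set 10492735), had intensities of 2666, 3439 and 851 in Pdx1cKO mice 1, 2 and 3 and 114 and 209 in controls 1 and 2. Its log2 fold change was 3.69 (standard error 0.78, 95% interval 1.44 to 5.93, limma adjusted p = 0.298), a 12.9-fold higher level. Fgb, the beta chain, was at 3289.5, 3963 and 1126 in the Pdx1cKO mice against 184 and 279 in the controls, with a log2 fold change of 3.44. Fga, the alpha chain, averaged from its probe sets, was at 472, 790.4 and 153 in the Pdx1cKO mice against 49.7 and 58.0 in the controls. No Pdx1cKO value of any chain overlapped a control value, and mouse 3 was the lowest of the Pdx1cKO mice in each. The difference between mice 1 and 3, 1.65 log2 for Fgg, 1.55 for Fgb and 1.63 for Fga, was larger than the gap between the controls (0.88, 0.60 and 0.22).

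Among the 11 measured transport proteins the median log2 fold change was 2.29. In 10 of them every Pdx1cKO value was above both controls, which held for 12% of all genes. Afp, alpha-fetoprotein, the main plasma carrier before birth, was at 3304, 4557 and 1345 in Pdx1cKO mice 1, 2 and 3 and 222 and 401 in controls 1 and 2, a log2 fold change of 3.19 (standard error 0.68). Alb, albumin, which binds fatty acids and sets the oncotic pressure of plasma, was at 7865, 7859 and 5346 in the Pdx1cKO mice against 1542 and 2177 in the controls. Its log2 fold change of 1.92 had the smallest standard error of the members over 1 log2 higher (0.27). In Pdx1cKO mice 1 and 2 Alb came to 0.83 and 0.80 log2 below the array's brightest probe set, near the top of the measured range.

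Ahsg, fetuin-A, a mineral-binding glycoprotein, was at 6504, 7204 and 3013 in the Pdx1cKO mice against 925 and 822 in the controls (log2 fold change 2.58), and in Pdx1cKO mouse 2 it was 0.93 log2 below the brightest probe set. Hrg, the histidine-rich glycoprotein, was at 421, 552 and 85.0 in the Pdx1cKO mice against 57.9 and 30.0 in the controls, a log2 fold change of 2.70. For Hrg, mouse 3 was closer to control 1 than to the other Pdx1cKO mice. The scavengers of free haemoglobin and haem had similar ratios, at 2.54 for Hp (haptoglobin) and 2.49 for Hpx (hemopexin). Fetub, fetuin-B, had 2.29.

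Smaller ratios were held by Rbp4, the plasma carrier of retinol, at 1.64, Ttr, the carrier of thyroid hormone, at 1.41, Ambp, the precursor of alpha-1-microglobulin and bikunin, at 1.32, and Cp, the copper ferroxidase ceruloplasmin, at 1.18. Ttr was at 2737, 4304 and 1679 in the Pdx1cKO mice against 1199 and 869 in the controls, without overlap. Islet alpha and beta cells also transcribe Ttr, and the islet hormones went the other way. All 5 measured were lower in every Pdx1cKO mouse (11.7% of all genes), with a median log2 fold change of -0.88. Gcg was at 1508, 1127 and 1104 in the Pdx1cKO mice against 2594 and 2649.7 in the controls. What islet cells contributed to Ttr was not tested, and in bulk RNA a change in the number of cells of a type cannot be told apart from a change in RNA per cell.

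Of the 7 apolipoproteins, which package plasma lipids, 6 did not overlap between groups, with a median log2 fold change of 1.74. Apoh, beta-2-glycoprotein I, a phospholipid-binding protein, was at 1709.7, 2674 and 482 in Pdx1cKO mice 1, 2 and 3 and 104 and 118 in controls 1 and 2. At 3.56 (standard error 0.86, limma adjusted p = 0.342) it ranked 2 of 19938 genes. Apoa2, a structural protein of high-density lipoprotein, was at 1535, 2309 and 383 in the Pdx1cKO mice against 218 and 138 in the controls (log2 fold change 2.67). Apoc1, which modulates lipoprotein metabolism, was at 665, 1055 and 204 in the Pdx1cKO mice against 144 and 109 in the controls (2.06 log2). In all 3 the groups were apart, and mouse 3 was nearest to the controls. Apom, a carrier of sphingosine-1-phosphate, had 1.60.

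Apoa1, Apob and Apoc3 behaved differently in the controls. Apoc3, an inhibitor of lipoprotein lipase, was at 169.7, 191 and 129 in Pdx1cKO mice 1, 2 and 3 and 56.8 and 210.3 in controls 1 and 2, so control 2 exceeded every Pdx1cKO mouse. Its log2 fold change was 0.56, and without control 1 it was -0.38. Apob, the backbone of chylomicrons and very-low-density lipoprotein, was at 263, 830.2 and 238 in the Pdx1cKO mice against 81.5 and 229.6 in the controls, and Apoa1, the main protein of high-density lipoprotein, at 4246, 4988 and 1574 in the Pdx1cKO mice against 600.4 and 1536 in the controls. These 3 were the members over 1 log2 higher in control 2 than in control 1, by 1.35 (Apoa1), 1.5 (Apob) and 1.89 (Apoc3). All are made by intestine as well as liver.

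Intestinal genes moved with them: of 10 measured, 7 were over 1 log2 higher in control 2 than in control 1, with list medians of 44.6, 42.4 and 77.1 in Pdx1cKO mice 1, 2 and 3 and 47.7 and 196 in controls 1 and 2. Apoa4, an intestinal apolipoprotein that neighbours Apoc3, was at 178, 151 and 487 in the Pdx1cKO mice against 208 and 2641 in the controls. Mttp, which loads lipid onto Apob, was at 126, 208 and 121 in the Pdx1cKO mice against 53.8 and 407 in the controls, and Fabp2, an intestinal fatty acid carrier, at 26.6, 32.6 and 71.8 in the Pdx1cKO mice against 25.9 and 285 in the controls. Fabp2 and Apoa4 were also highest in mouse 3 among the Pdx1cKO mice. The part of intestinal RNA in the values of Apoa1, Apob and Apoc3 was not tested.

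**Figure D2:**
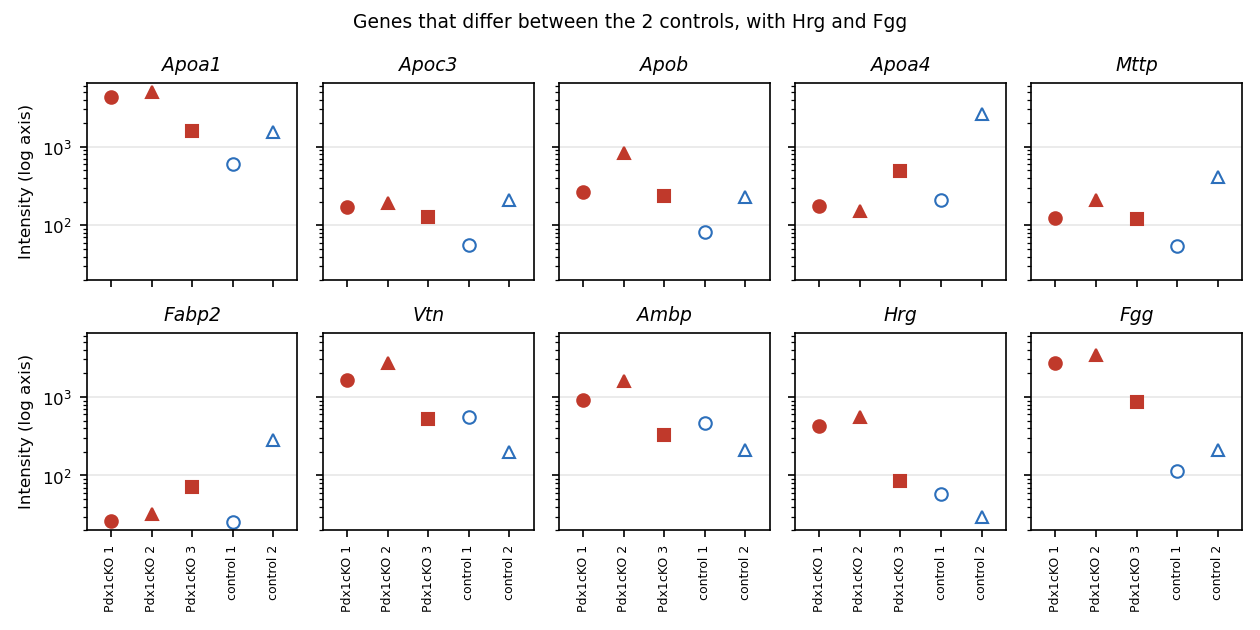
Intensity (log axis) per array of 8 genes that differ between the 2 controls, with Hrg and Fgg for comparison (red filled symbols, Pdx1cKO mice; blue open symbols, controls). Apoa1, Apoc3 and Apob share a high control 2 with the intestinal genes Apoa4, Mttp and Fabp2, while Vtn and Ambp are higher in control 1.

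The log2 fold changes of the 8 clotting factors ran from 0.41 (F9) to 2.74 (Kng1), with a median of 1.00. Of the 8, 5 were higher without overlap, against 12% of all genes. Kng1, kininogen, the source of bradykinin and a cofactor of contact activation, was at 2428, 3383 and 852 in Pdx1cKO mice 1, 2 and 3 and 306 and 269 in controls 1 and 2 (log2 fold change 2.74, standard error 0.70). Its close paralog Kng2 had 2.02, and the probes may not separate them. F2, prothrombin, was at 695, 1179 and 250.2 in the Pdx1cKO mice against 147 and 119 in the controls (2.16 log2), and F12, which starts contact activation, at 283, 403 and 118 in the Pdx1cKO mice against 62.3 and 60.8 in the controls (1.95 log2). F10, the protease of the prothrombinase complex, followed at 1.33. In Kng1, F2, F12 and F10 no Pdx1cKO value reached down to a control value.

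F5, the cofactor of factor X, had 0.67, and F11, F7 and F9, all clotting proteases, had 0.53, 0.48 and 0.41. F7 was at 50.6, 67.9 and 41.1 in the Pdx1cKO mice against 44.0 and 31.7 in the controls and F9 at 30.3, 43.3 and 24.1 in the Pdx1cKO mice against 22.7 and 25.1 in the controls, below the array median in all or most arrays. F11 was at 57.7, 123 and 54.0 in the Pdx1cKO mice against 54.0 and 46.5 in the controls, with the highest value in Pdx1cKO mouse 2 and mouse 3 equal to control 1. Without detection calls, whether F7 and F9 lay above background is unknown, and a ratio of values near background can understate a difference. In all of F5, F7, F9 and F11 Pdx1cKO mouse 2 was the highest of the 5 arrays.

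Anticoagulant and fibrinolytic members had a median log2 fold change of 2.21. Serpinc1, antithrombin, was at 491, 779 and 149 in the Pdx1cKO mice against 54.4 and 53.9 in the controls (2.83 log2, standard error 0.83). Plg, plasminogen, the precursor of the protease that dissolves fibrin, was at 864, 1396 and 296 in the Pdx1cKO mice against 114 and 91.9 in the controls (2.79 log2). Serpind1, heparin cofactor II, was at 268, 647 and 118 in the Pdx1cKO mice against 50.3 and 52.1 in the controls (2.42 log2). In none of these 3 genes did the groups overlap, and mouse 3 was the lowest Pdx1cKO mouse in each. Serpinf2, alpha-2-antiplasmin, had 1.81.

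Vtn, vitronectin, an adhesion protein that also stabilises plasminogen activator inhibitor, was at 1643, 2718 and 529 in the Pdx1cKO mice against 559.6 and 199.6 in the controls, so that mouse 3 lay between the controls. Control 1 exceeded control 2 by over 1 log2 in Vtn and in Ambp, by the log2 differences -1.49 and -1.17 (control 2 minus control 1), and in no other member. Ambp was at 912, 1606 and 327 in the Pdx1cKO mice against 471 and 209 in the controls. Proc, protein C, an anticoagulant protease, was at 199, 346 and 104 in the Pdx1cKO mice against 140.5 and 108 in the controls, with mouse 3 below both controls and a log2 fold change of 0.65. Pericytes also make Vtn. The 8 mesenchyme and pericyte genes had a median log2 fold change of 0.28, 3 of them higher without overlap (12% of all genes). Their list medians were 2363, 2396 and 2798 in the Pdx1cKO mice against 2498 and 1681 in the controls. The part of these cells in Vtn was not tested.

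The 4 heavy chains of the inter-alpha-trypsin inhibitors, which are transferred onto hyaluronan in the matrix, were each higher without overlap (12% of all genes). Their median was 2.59. Itih2 was at 1225, 1896 and 382 in the Pdx1cKO mice against 123 and 138 in the controls (2.88 log2), Itih3 at 948, 1253 and 285 in the Pdx1cKO mice against 108 and 102 in the controls (2.73 log2) and Itih4 at 692, 1141 and 218 in the Pdx1cKO mice against 121 and 86.8 in the controls (2.44 log2). Itih1 had the smallest ratio of the family, 1.38. Of the complement components of the membrane attack complex, C8b, the beta chain of C8, was at 299, 618 and 124 in the Pdx1cKO mice against 47.7 and 52.7 in the controls (2.50 log2). C8a, the alpha chain, was at 39.9, 59.6 and 30.4 in the Pdx1cKO mice against 35.4 and 35.2 in the controls, and C9, which forms the pore, at 25.0, 27.9 and 25.0 in the Pdx1cKO mice against 25.0 and 25.0 in the controls. C9 had the same value in 4 of the 5 arrays, and neither it nor C8a separated the groups (0.24 log2 for C8a). Both lay below the array median in every array, so whether either was above background is unknown.

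**Figure D3:**
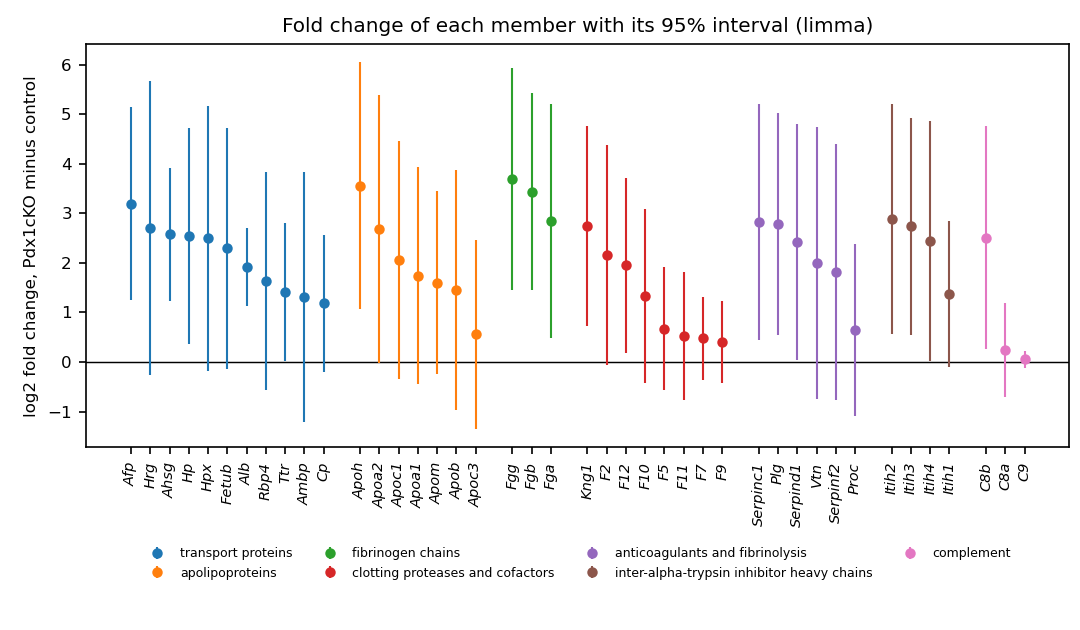
Log2 fold change of each member, Pdx1cKO minus control (points), with its 95% interval from limma (lines), by role and in falling order within a role. All 42 points lie above 0, from 0.05 for C9 to 3.69 for Fgg, and 18 intervals lie wholly above 0.

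Several members sit side by side in the genome (RefSeq, GRCm38.p6), which the choice of members did not use. Ahsg, Fetub, Hrg and Kng1 lie in a row with 1 other protein-coding gene between Hrg and Kng1, and their log2 fold changes were 2.58, 2.29, 2.70 and 2.74. The adjacent Fgg, Fga and Fgb had 3.69, 2.84 and 3.44. Itih4, Itih3 and Itih1, also adjacent, had 2.44, 2.73 and 1.38. Adjacent members thus did not always have similar ratios. C8b had 2.50 and C8a 0.24; Afp had 3.19 and Alb 1.92; F10 had 1.33 and F7 0.48; Apoa1 had 1.74 and Apoc3 0.56. In each pair mouse 3 was the lowest Pdx1cKO mouse for both genes. C8a and F7 were dim, Alb was near the top of the measured range, and control 2 exceeded every Pdx1cKO mouse in Apoc3. How far this set the differences within pairs was not tested.

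Whether the members scaled together was read from the 3 Pdx1cKO arrays alone, which needs no control. In 39 of 42 members (92.9%) mouse 2 was highest, mouse 1 next and mouse 3 lowest, an order held by 10.7% of all genes, although 50.8% of all genes had a tie between these mice. Among the 2396 genes with every Pdx1cKO value above both controls, 18.8% had that order. The exceptions were Alb and Cp, where mouse 1 was highest, and C9, where mice 1 and 3 were tied. Mouse 3 was lowest in 41 members, against 23.9% of all genes. It was also lowest in all 5 islet hormones and all 4 alpha cell genes measured, Gcg being in both lists. By contrast, it was lowest in 1 of 8 acinar genes and in 0 of 8 mesenchyme and pericyte genes. Over the members the median log2 intensity above the control mean was 2.34, 3.06 and 0.89 in mice 1, 2 and 3.

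The size of the steps was less uniform than their order. Mouse 2 exceeded mouse 1 by a median of 0.58 log2 (quartiles 0.39 and 0.74, range -0.08 to 1.66), and mouse 1 exceeded mouse 3 by 1.44 (quartiles 0.78 and 1.66, range 0.00 to 2.31). Over all genes both medians were 0.00. The members with the largest step between mice 2 and 1 were Apob (1.66), Serpind1 (1.27), Serpinf2 (1.20) and F11 (1.09). Those with the smallest were Cp (-0.08), Alb (-0.00), Hp (0.15) and Ahsg (0.15). Hrg (2.31), Hpx (2.05), Apoa2 (2.0) and Fetub (2.0) had the largest steps between mice 1 and 3. Apob, with 0.14, had nearly the same level in mice 1 and 3.

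On the linear scale, the intensity above the control mean was compared between the Pdx1cKO mice for the 32 members that were over 1 log2 higher without overlap. Members in which mouse 3 did not exceed both controls, such as Ambp and Vtn, are left out of the 32. All these ratios share the control mean. A single common factor would give each member the same ratio. Mouse 2 held a median of 1.60 times the excess of mouse 1, and 26 of the 32 lay within 1.5-fold of that median. Mouse 1 held a median of 4.33 times the excess of mouse 3, with 21 of 32 within 1.5-fold. Below that band were Apob (1.30), Alb (1.72), Ahsg (2.63) and Ttr (2.64), and above it 7 members, from Apoa2 (6.61) to Hrg (9.19) and Rbp4 (9.98). Over all 37 members with an excess in each Pdx1cKO mouse, the 2 medians were 1.65 and 4.31. Of these members, 28 and 22 lay within 1.5-fold, with ratios up to 9.74 (F11) and 33.8 (F9). These ratios were not equal over the members. For 33 members over 1 log2 higher with an excess in each Pdx1cKO mouse, they were compared with the mean Pdx1cKO level. Spearman's rho was -0.39 for mouse 2 over mouse 1 and -0.13 for mouse 1 over mouse 3. Whether unequal ratios reflect the members or the arrays' response to dim and bright signals was not tested. More of the 32 lay near a common ratio between mice 1 and 2 (26) than between mice 1 and 3 (21). This difference was not tested.

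**Figure D4:**
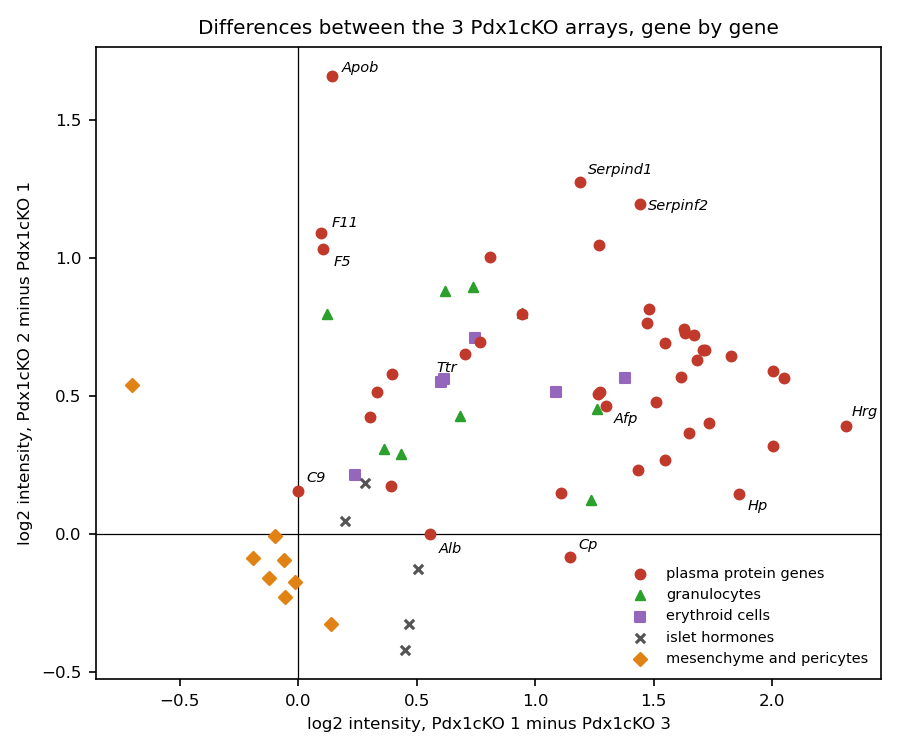
Log2 intensity of Pdx1cKO mouse 1 minus mouse 3 (x axis) against mouse 2 minus mouse 1 (y axis) for each member (red) and for genes of granulocytes, erythroid cells, islet hormones, and mesenchyme and pericytes. Most members lie right of and above 0, with medians of 1.44 and 0.58, together with the granulocyte and erythroid genes, whereas no mesenchymal gene shares the members' order of mice.

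Other transcripts had the same order of mice. The 9 granulocyte genes had a median log2 fold change of 2.23, and the 6 measured genes of erythroid cells 1.59. Every one was higher without overlap (12% of all genes) and ran from mouse 2 to mouse 1 to mouse 3 (10.7%). List medians were 238, 405 and 139 in the Pdx1cKO mice against 48.3 and 48.9 in the controls for granulocytes, and 152, 229 and 81.9 against 54.5 and 52.8 for erythroid cells. Their step between mice 1 and 3 was smaller, with a median of 0.68 in each list, than the 1.44 of the members. Ngp, a neutrophil granule protein, was at 732, 1003 and 306 in the Pdx1cKO mice against 66.7 and 69.0 in the controls, and Slc4a1, the erythrocyte anion exchanger, at 1067, 1580.2 and 411 in the Pdx1cKO mice against 92.8 and 148 in the controls. Neonatal liver also forms blood cells. The part of granulocytes and erythroid cells in the members' values was not tested. Platelet and endothelial genes had medians of 0.30 and 0.40, and macrophage and adipocyte genes -0.11 and -0.09. The order of mice 2, 1 and 3 was also that of 4 of the 5 platelet genes measured, and of 1 of 6 endothelial genes.

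Hepatocyte genes whose products stay in the cell were mostly higher too. The 17 measured enzymes, transporters and other proteins of this kind had a median log2 fold change of 2.22. Among them, 12 were higher without overlap (12% of all genes) and 16 were lowest in mouse 3 (23.9%). The order of mice 2, 1 and 3 was held by 11 (10.7%). Cps1, which starts the urea cycle, was at 1564, 2190.2 and 492 in the Pdx1cKO mice against 98.9 and 145 in the controls (3.31 log2), and Cyp2e1, a cytochrome P450, at 1205, 919 and 220.3 in the Pdx1cKO mice against 85.3 and 49.9 in the controls (3.26 log2). In Cyp2e1 and 5 others of the 17, Tat and Arg1 among them, mouse 1 exceeded mouse 2, whereas mouse 2 was the highest Pdx1cKO mouse in 40 of the 42 members. None of the 17 passed over all genes (limma), and 7 were higher at an unadjusted p under 0.05, against 5.29% of all genes.

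The remaining secreted proteins of hepatocytes gave a broader range. Of 48 measured outside the members, 21 were higher without overlap (12% of all genes) and 0 were lower without overlap (11.7%). The median log2 fold change of the 48 was 0.66. None passed over all genes (limma), and 3 were higher at an unadjusted p under 0.05, which at 6.25% is close to the 5.29% of all genes. The largest log2 fold changes were those of Pzp, a broad protease inhibitor, at 1623, 2822 and 627 in the Pdx1cKO mice against 174 and 153 in the controls (3.13 log2), and Igfbp1, an insulin-like growth factor carrier, at 1035, 1639 and 342 in the Pdx1cKO mice against 146 and 116 in the controls (2.68 log2). The negative values largest in size were those of Apoa4 (-1.65) and Cpn1, a carboxypeptidase of plasma, which was at 427, 763 and 202 in the Pdx1cKO mice against 565 and 396 in the controls (-0.23 log2). Igfals (-0.02), C6 (-0.03), Mug2 (-0.02) and Pon3 (-0.04) were near 0, and A1bg was at 27.2, 27.2 and 27.2 in the Pdx1cKO mice against 27.2 and 27.2 in the controls. Among the 48, 32 had the order of mice 2, 1 and 3, against 10.7% of all genes.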

How the data were processed

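RNA of whole pancreas from 3 Pdx1cKO and 2 control mice was hybridised to Mouse Gene 1.0 ST arrays. The authors deposited linear intensities of 28853 probe sets, normalized in GeneSpring GX 12.1. How background, normalization and probe set summary were done is not given in the sources used here, so compression of dim or very bright signals is unknown. No detection calls were used. Log2 was taken with no pseudocount, filter or further scaling. Of the probe sets, 21789 have 1 gene symbol in the platform annotation, 1621 have several and 5443 are unnamed here. Those with 1 symbol were averaged into 19938 genes, of which 999 had more than 1 probe set.

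Pdx1cKO was compared with control in limma 3.58.1 (R 4.3.3) by lmFit and eBayes on all genes, with Benjamini-Hochberg adjustment at 0.05, after the step was tested on simulated data. Lists are given by counts and medians, with no set test. The differences between Pdx1cKO arrays are descriptive, since members share the arrays. Promoters come from RefSeq (GRCm38.p6). The members and gene lists were chosen with earlier results of these data known. Values per array were named for the 3 members of each role with the largest log2 fold change, for members under 0.5 in size, and for members that differ from the rest; the last were chosen after their values were seen. The replicate numbers of the labels mark no shared animal, and a fit with them as a block was an alternative, beside scaling, quantile normalization, a filter on dim genes, the brightest probe set, eBayes with trend, array weights, the methods' t-test, a sex covariate and leaving out each mouse. Python 3.11.15 and pandas 2.3.3 were used.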

Additional observations from a re-analysis of the deposited data

How the results depend on the processing

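Over all genes 0 members passed in limma and under every alternative run, including the methods' t-test. The count at an unadjusted p, 18 in limma, was 10 by the methods' t-test and 1 with array weights. It was 2 without control 1 and 4 without control 2, a smaller share than the 14.8% and 10.4% of all genes, and 5 without Pdx1cKO 1, 9 without Pdx1cKO 2 and 32 without Pdx1cKO 3, against 3.57%, 4.08% and 4.35% of all genes. Over the members the median log2 fold change lay at 1.61 to 2.70 over the left-out mice, and 33 to 40 members did not overlap between groups, where the share of all genes, 12% with every mouse, was 31.1% without control 1 and 25.5% without control 2. With the sex covariate, which sets Pdx1cKO mouse 3 alone against the controls, that median was 0.89. With the replicate block it was 2.70, with 27 members at an unadjusted p and 0 adjusted, and the block removes mouse 3 from the comparison. Deviations of same-numbered mice correlated at 0.03 and -0.003 over all genes. With 2 controls their deviations mirror each other, so whether the numbers mark a pairing stays unknown. Signs reversed for Apoc3 without control 1 (-0.38) and for C8a without Pdx1cKO 2 (-0.0203), C9 was at 0 without Pdx1cKO 2, and the other 39 members were positive in all 9 settings.

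As a log2 ratio of intensities above the control mean, the median step was 2.11 between mice 1 and 3 and 2.95 between mice 2 and 3. That used 37 members, against steps of 1.44 and 2.0 as differences of log2 values over 42. Settings with a single control were chosen after seeing the data. Above control 1 alone the steps were 2.05 and 2.90 (35 members), and above control 2 alone 2.07 and 2.93 (37 members). Subtracting the control level enlarges the ratio by construction, and the sets of members differ, so these steps are not directly comparable. Scaling, quantile normalization, the dim-gene filter (36 members kept) and the brightest probe set moved each of these medians by less than the spread between the mice or members.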

Other observations

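Genes that matched no list were also among the 50 largest log2 fold changes, and these are named after their values were seen. Serpina1c, an antitrypsin whose probes may read close paralogs, was at 527, 850.3 and 118 in the Pdx1cKO mice against 38.8 and 34.0 in the controls (3.37 log2). Trf, transferrin, the iron carrier of plasma, was at 6874, 7816 and 3308 in the Pdx1cKO mice against 1045 and 1137 in the controls (2.37 log2). Crp, C-reactive protein, was at 408, 676 and 189.8 in the Pdx1cKO mice against 84.8 and 47.5 in the controls (2.56 log2), and A2m, alpha-2-macroglobulin, at 350.4, 1088 and 288 in the Pdx1cKO mice against 56.5 and 78.4 in the controls (2.85 log2). In each of these 4 mouse 2 was the highest and mouse 3 the lowest of the Pdx1cKO mice. Transferrin was meant for the list of other secreted proteins of hepatocytes under the symbol Tf, which did not match Trf. The 48 measured there thus leave it out.

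Others had different orders. The muscle gene Myh8 was at 1234, 137 and 381 in the Pdx1cKO mice against 57.7 and 45.5 in the controls. Acta1, skeletal muscle actin, was at 2373, 259 and 633 in the Pdx1cKO mice against 87.7 and 106 in the controls. Both had mouse 1 highest and mouse 2 lowest among the Pdx1cKO mice. Dbh, which makes noradrenaline, was at 560.1, 62.7 and 355 in the Pdx1cKO mice against 46.8 and 36.1 in the controls. Cym, chymosin, a milk-clotting protease of the neonatal stomach, was at 6539, 6202 and 7123 in the Pdx1cKO mice against 145 and 9981 in the controls, so its log2 fold change rests on control 1 alone. Control 2 is also the array with high stomach transcripts. Cyp7a1, the rate-limiting enzyme of bile acid synthesis, was at 111, 415 and 79.0 in the Pdx1cKO mice against 29.8 and 25.1 in the controls, mouse 2 being the highest.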
